A study of Homo sapiens with 6 samples.

Results

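The p53 target genes described here are 31 genes that p53 is known to induce or that act in its feedback loop. They were taken by name from a list drawn up with earlier results of these data known, and every one of the 31 names was found among the 23382 gene names of the deposited table of raw read counts. The RNA came from UM-UC-3, a human bladder cancer cell line, and was sequenced as bulk libraries. The study held 3 libraries labelled si-CPSF3, an siRNA against the endonuclease that cuts pre-mRNA ahead of polyadenylation, and 3 libraries labelled Negative control, each numbered 1 to 3, and no time after transfection is given in the labels. Whether the 3 libraries of a group are separate cultures is not stated, and p-values reflect only how far these libraries lie apart, which may be technical spread. UM-UC-3 is a single established line, which limits it as a model of other bladder cancer cells.

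p53 is a transcription factor held at a low level by the ubiquitin ligase MDM2 and its partner MDM4. After DNA damage, nucleolar stress or other insults it accumulates and induces genes that stop the cell cycle, repair DNA, change metabolism or promote cell death, and it induces MDM2 itself, which closes the loop. Through the CDK inhibitor p21, the product of CDKN1A, it also lowers genes of the cell cycle that are bound by the DREAM repressor complex. Several of its targets, among them GDF15 and SESN2, are also known targets of the stress factors ATF4 and CHOP, and can be induced where p53 is not functional.

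Depth after keeping 1 row per gene name lay between 4224413 and 4378899 counts in the libraries labelled si-CPSF3 and between 4145385 and 4362312 in the control libraries. The siRNA target CPSF3 had 56, 38 and 66 counts in the libraries labelled si-CPSF3 against 20, 50 and 36 in the control libraries, a log2 fold change of 0.67 (SE 0.32, edgeR adjusted p = 0.329). The target was thus not lower where the label says it should be, and groups are called below only by their labels. Epithelial keratins KRT8 and KRT18 were present, while KRT19, EPCAM, CDH1 and UPK2 were at 0 in every library. Summed over the 6 epithelial markers, the level was 206 to 244 CPM in the libraries labelled si-CPSF3 and 206 to 269 CPM in the control libraries. The 4 urothelial markers with a row summed to 3.63 to 4.03 CPM in the libraries labelled si-CPSF3 and to 7.29 to 8.81 CPM in the control libraries. Of the leukocyte markers only CD68 and LYZ had a row, with a sum of 27.7 to 34.1 CPM in the libraries labelled si-CPSF3 and 38.6 to 42.9 CPM in the control libraries. The lower sum came from CD68, at 16.9, 13.1 and 12.2 CPM against 27.8, 20.8 and 27.3 CPM in the control libraries (edgeR adjusted p = 0.0524). LYZ was at 17.2, 18.7 and 15.4 CPM against 15.1, 17.7 and 14.3 CPM in the control libraries (edgeR adjusted p = 0.851). The part of these markers in the results below was not tested.

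The sequences below show where letters like the p53 binding site stand next to the start of the genes. In RefSeq promoters of GRCh38.p14, taken as 250 bases before to 50 bases after the start, 27 of the 31 members had an entry; GADD45A, PHLDA3, RRM2B and TP53INP1 had none. The p53 half-site, a 10-base consensus that reads the same on both strands, matched in 4 of these 27 promoters and in 6.54% of all 27305 promoters. A full response element, 2 half-sites with a spacer of up to 13 bases, matched in 0 of the 27 and in 0.0293% of all promoters. Allowing up to 3 mismatches outside the C and G of each core, with no spacer, 3 of the 27 and 1.05% of all promoters held a match, which may overlap a half-site counted above. The matches follow on the strand of the gene, with the matching bases in capitals. The first is shown because GDF15 was the member that rose, the second because PLK2 was the member that fell, and the others because EI24, AEN and FDXR complete the set of matches.
GDF15, relaxed full element, from base 29 of the transcript, chr19:18386182-18386207, plus strand: gcacAGCCATGCCCGGGCAAGAACtc
PLK2, half-site from base -132, chr5:58460203-58460224, minus strand: gggacaAGACTTGCTTcccggc
EI24, half-site from base -10, chr11:125569461-125569482, plus strand: cggcccGGGCATGCCCagtgcg
AEN, relaxed full element from base -34, chr15:88621302-88621329, plus strand: agccGGGCTTGCCCGGGCATGTGGgagc
FDXR, relaxed full element from base -21, chr17:74872992-74873019, minus strand: gcccGGGCAGGAGCGGGCTTGCCCtgcg

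A match is a description of the letters and does not show binding. The start used for AEN lies inside its gene as annotated (chromosome 15 from 88604683 to 88632281), so its window is not at the outer end of that gene. CDKN1A, MDM2, BTG1 and SESN2 held none of these matches in this window, and p53 elements of CDKN1A and MDM2 are known to lie outside it. Of the motif bound by ATF4 with C/EBP factors, searched as TGATGNAA on both strands, 1 of the 27 promoters held a match, that of PLK3, against 3.67% of all promoters. The cyclic AMP response element, searched as TGACGTCA, matched in 1 of the 27, that of PPM1D, against 1.98% of all promoters.

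Across the 31 members there was no common direction. 24 members had enough counts to be tested, and with edgeR's quasi-likelihood test adjusted over all genes tested, 1 rose (GDF15), 1 fell (PLK2) and 22 did not pass. The background was 2.23% of 11069 genes past the threshold in either direction, 0.723% higher and 1.51% lower, so 1 member in each direction is a small count from which nothing is read about the list. The median log2 fold change of the tested members was 0.08, with 13 above 0 and 11 below, beside a median of -0.008 over all genes tested. In a bulk sample, fewer cells of a kind and less RNA per cell cannot be told apart, and this holds for every difference below.

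**Figure D1:**
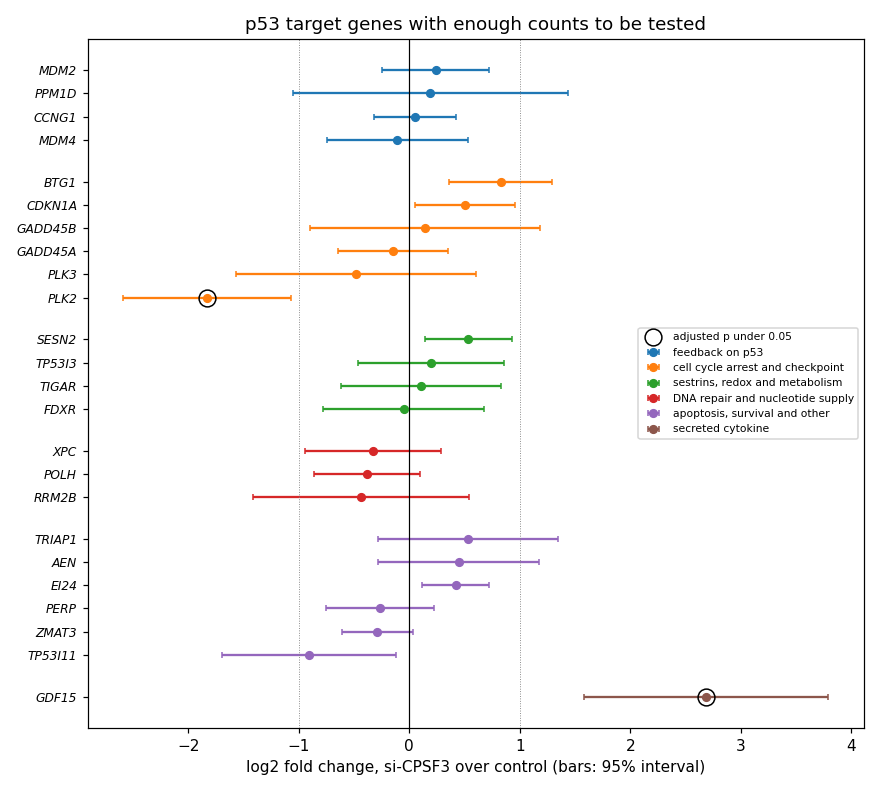
Log2 fold change (x axis, libraries labelled si-CPSF3 over control) of the 24 tested p53 target genes by role, with 95% intervals from the fit as bars, dotted lines at 2-fold either way and rings around genes with an adjusted p under 0.05. GDF15 at 2.68 and PLK2 at -1.83 are the ringed genes, and most other intervals cross 0.

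GDF15 encodes a secreted cytokine of the TGF-beta superfamily that is induced by many stresses, and lies on chromosome 19 from 18386158 to 18389176 (GRCh38). It had 15, 27 and 27 counts in the libraries labelled si-CPSF3 against 4, 6 and 1 in the control libraries. Scaled to library size these were 4.03, 6.31 and 6.12 CPM in the libraries labelled si-CPSF3, against 0.904, 1.25 and 0.260 CPM in the control libraries. Every library labelled si-CPSF3 lay above every control library. The rise was 6.425-fold (log2 fold change 2.68, SE 0.52, 95% interval 1.58 to 3.79, edgeR adjusted p = 0.0126). The control level is low, and GDF15 passed the filter on low counts only through the libraries labelled si-CPSF3. Without any filter on low counts it passed as well (edgeR adjusted p = 0.000159), in a more lenient fit where 547 genes passed against 247. In limma fits of the deposited FPKM values, it passed on log2(FPKM + 1) with a filter (limma adjusted p = 0.0376). It missed the threshold there without a filter (limma adjusted p = 0.321) and on log2(FPKM + 0.1) (limma adjusted p = 0.0861). With 1 library left out it passed in 3 of 6 fits. It missed the threshold without replicate 2 (0.0701) or 3 (0.0514) of the libraries labelled si-CPSF3 and without control replicate 1 (0.0549), each an edgeR adjusted p. It had the highest fold change of the 24 tested members.

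PLK2, a polo-like kinase known for its part in centriole duplication and for its induction by p53, lies on chromosome 5 from 58453982 to 58460086. Its counts were 14, 6 and 14 in the libraries labelled si-CPSF3 against 48, 46 and 35 in the control libraries. On the scale of normalised counts the levels were 3.76, 1.40 and 3.18 CPM in the libraries labelled si-CPSF3 and 10.8, 9.59 and 9.11 CPM in the control libraries. The groups did not overlap, and the lowest library was replicate 2 of those labelled si-CPSF3. PLK2 fell by 1.83 on the log2 scale (SE 0.36, 95% interval -2.59 to -1.07, edgeR adjusted p = 0.0130), so that its level was 3.55-fold lower than in the control group. It passed in 4 of 6 fits with 1 library left out, and not without replicate 2 of the libraries labelled si-CPSF3 (adjusted p = 0.0625) or without control replicate 1 (adjusted p = 0.0665, both by edgeR). PLK2 reached the minimum count in 2 of the libraries labelled si-CPSF3 and in all 3 control libraries. In the fits on deposited FPKM values it missed the threshold (limma adjusted p = 0.0922, 0.109 and 0.334). The related kinase PLK3 had 11, 5 and 13 counts in the libraries labelled si-CPSF3 against 11, 11 and 20 in the control libraries, with overlapping groups and a log2 fold change of -0.48 (95% interval -1.56 to 0.61).

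**Figure D2:**
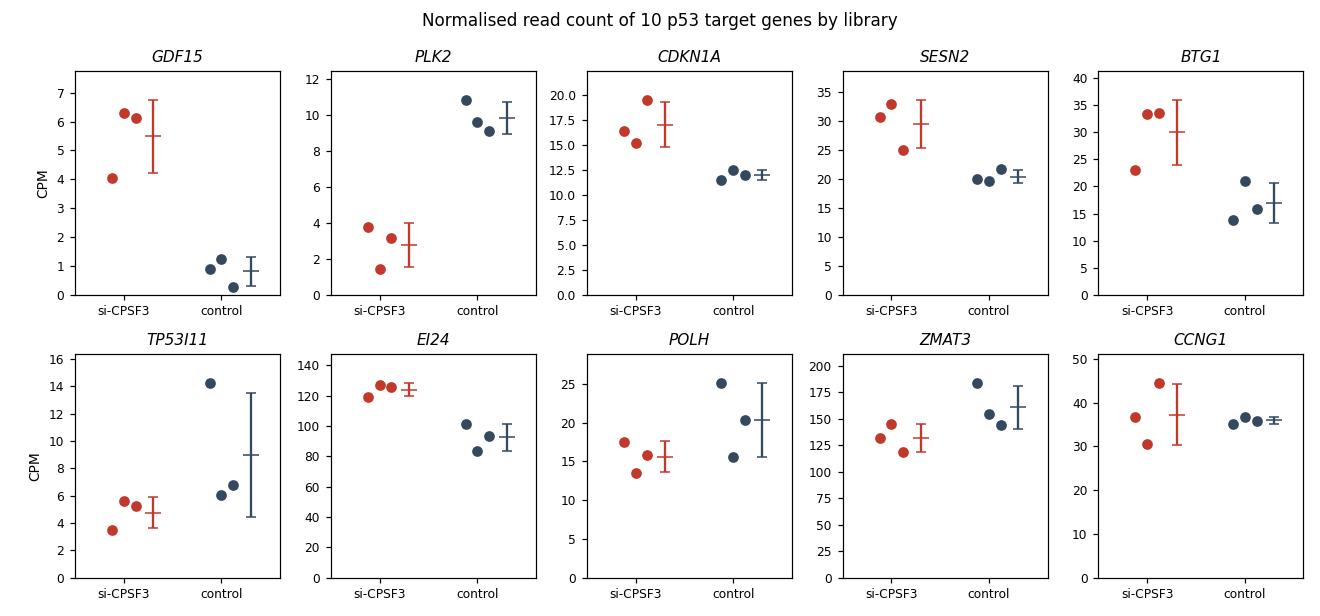
Normalised read count (CPM, y axis from 0) of 10 p53 target genes in each library, with libraries labelled si-CPSF3 on the left and control libraries on the right of each panel; dots are libraries and the bar beside them is the mean ± SD of 3. GDF15, CDKN1A, SESN2, BTG1 and EI24 have every library labelled si-CPSF3 above every control library, and PLK2 and TP53I11 have the opposite order.

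Other genes of cell cycle arrest did not pass the test. BTG1, an antiproliferative factor that binds the CCR4-NOT deadenylase, had 86, 143 and 148 counts in the libraries labelled si-CPSF3 against 61, 101 and 61 in the control libraries. Its normalised levels were 23.1, 33.4 and 33.6 CPM in the libraries labelled si-CPSF3 and 13.8, 21.05 and 15.9 CPM in the control libraries, with no overlap. The log2 fold change of 0.83 (SE 0.22, 95% interval 0.36 to 1.29) missed the threshold (edgeR adjusted p = 0.0626). It passed where low genes were not filtered (0.00977), where the rows of a gene name were summed (0.0442) and without control replicate 2 (0.0441), all edgeR adjusted p. Among the members only SESN2 is on several rows, so summing left the counts of BTG1 unchanged and its log2 fold change at 0.83. Annotation places 2 non-coding genes over exons of BTG1, LINC01619 on its strand and AC025164.1 on the other, and neither name has a row in the table.

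CDKN1A, which encodes the CDK inhibitor p21 and is the best known p53 target, had 61, 65 and 86 counts in the libraries labelled si-CPSF3 against 51, 60 and 46 in the control libraries. The levels were 16.4, 15.2 and 19.5 CPM in the libraries labelled si-CPSF3 and 11.5, 12.5 and 11.97 CPM in the control libraries. Groups did not overlap, but the difference was 1.42-fold and did not pass (log2 fold change 0.50, SE 0.21, 95% interval 0.05 to 0.96, edgeR adjusted p = 0.271). The interval lies below a 2-fold increase. GADD45A and GADD45B, stress sensors that bind p21 and PCNA, were at -0.15 (95% interval -0.64 to 0.35) and 0.14 (95% interval -0.90 to 1.18) on the log2 scale, both with overlapping groups. BTG2, a relative of BTG1, had 2 counts in all in the libraries labelled si-CPSF3 and 8 in the control libraries and was too low to test.

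The feedback genes did not pass the test, and their groups overlapped. MDM2, the ubiquitin ligase of p53, had 19.6, 19.4 and 17.5 CPM in the libraries labelled si-CPSF3 against 11.3, 17.3 and 19.3 CPM in the control libraries. Its log2 fold change was 0.24 (SE 0.23, 95% interval -0.24 to 0.73, edgeR adjusted p = 0.682). Exons of MDM2 are overlapped by AC025423.2 on its strand (439 bases) and AC025423.4 on the other (401 bases), and neither name has a row. The gene named CPM, on the other strand, overlaps them by 133 bases. That gene had 10, 19 and 18 counts in the libraries labelled si-CPSF3 against 15, 25 and 4 in the control libraries. CCNG1, cyclin G1, which recruits a phosphatase to MDM2, was the most abundant gene of this role in CPM, with 36.8, 30.6 and 44.45 CPM in the libraries labelled si-CPSF3 and 35.2, 36.7 and 35.9 CPM in the control libraries. Its log2 fold change of 0.05 (95% interval -0.31 to 0.42) turned to -0.04 when scaled by library totals alone, a scaling that moves the median of all genes to -0.103. MDM4, the partner of MDM2, was at -0.11 (95% interval -0.75 to 0.53) and PPM1D, the phosphatase WIP1, at 0.19 (95% interval -1.05 to 1.44), the widest interval of the 4, from 24 counts in the libraries labelled si-CPSF3 and 22 in the control libraries.

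Among the sestrins, SESN2 was the member with substantial expression. SESN2 encodes a leucine sensor that restrains mTORC1 and is known to be induced by ATF4 as well as by p53. It had 114, 141 and 110 counts in the libraries labelled si-CPSF3 against 88, 94 and 83 in the control libraries, or 30.6, 32.9 and 24.95 CPM in the libraries labelled si-CPSF3 against 19.9, 19.6 and 21.6 CPM in the control libraries. The groups did not overlap, and the difference of 1.45-fold did not pass the test (log2 fold change 0.53, SE 0.18, 95% interval 0.14 to 0.93, edgeR adjusted p = 0.162). The table holds SESN2 on 2 rows with identical counts and different FPKM. SESN1 had 9 counts in the libraries labelled si-CPSF3, 7 of them in replicate 3, and 3 in the control libraries. SESN3 had 0 counts in all 6 libraries, which allows up to 0.242 CPM in the libraries labelled si-CPSF3 and 0.23 CPM in the control libraries at a floor of 3 counts over a group, for counting error only.

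Metabolic targets other than sestrins did not pass, and their groups overlapped. TIGAR, a phosphatase that redirects glucose into the pentose phosphate pathway, was at 0.10 (95% interval -0.62 to 0.83), and a gene annotated as AC008012.1 shares 1362 bases of exon with it on the same strand. FDXR, ferredoxin reductase of mitochondria, was at -0.05 (95% interval -0.78 to 0.68), and replicate 3 of the libraries labelled si-CPSF3, at 9.75 CPM, stood above the 4.30 and 5.14 CPM of the other libraries of its group. TP53I3, a quinone oxidoreductase linked to oxidative stress, was at 0.20 (95% interval -0.46 to 0.86). TP53INP1, a nuclear protein of autophagy and cell death, had 5 counts in the libraries labelled si-CPSF3 and 7 in the control libraries and was not tested.

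All 3 tested genes of DNA repair and nucleotide supply lay below 0, and none passed. POLH, the translesion DNA polymerase eta, had 17.45, 13.55 and 15.9 CPM in the libraries labelled si-CPSF3 against 25.1, 15.6 and 20.3 CPM in the control libraries. These groups overlapped (log2 fold change -0.38, SE 0.23, 95% interval -0.86 to 0.10, edgeR adjusted p = 0.466). XPC, which recognises helix-distorting DNA damage, was at -0.33 (95% interval -0.95 to 0.29), and the exons of LSM3 on the other strand overlap its own. RRM2B, a p53-inducible ribonucleotide reductase subunit, was at -0.44 (95% interval -1.41 to 0.54). DDB2, the sensor of ultraviolet damage, had 7, 5 and 8 counts in the libraries labelled si-CPSF3 against 9, 12 and 9 in the control libraries, with no overlap in CPM, and was below the filter.

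Of 6 tested genes of apoptosis, survival and other functions, 0 passed in either direction with edgeR, and 2 had an unadjusted p under 0.05. Over all genes tested, 15.4% had such an unadjusted p in either direction. EI24, a membrane protein of the endoplasmic reticulum linked to autophagy, had 444, 543 and 555 counts in the libraries labelled si-CPSF3 against 447, 400 and 360 in the control libraries. Scaled, these were 119, 127 and 126 CPM in the libraries labelled si-CPSF3 and 101, 83.4 and 93.7 CPM in the control libraries, with no overlap. The difference was 1.34-fold (log2 fold change 0.42, SE 0.14, 95% interval 0.12 to 0.72, edgeR adjusted p = 0.158). ZMAT3, a zinc finger protein that regulates splicing, was the most abundant member in CPM, with 132, 145 and 118 CPM in the libraries labelled si-CPSF3 against 183, 155 and 144 CPM in the control libraries. Its groups overlapped by 1 library (log2 fold change -0.29, SE 0.15, 95% interval -0.61 to 0.04, edgeR adjusted p = 0.398).

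TP53I11 had 13, 24 and 23 counts in the libraries labelled si-CPSF3 against 63, 29 and 26 in the control libraries. The levels were 3.49, 5.61 and 5.22 CPM in the libraries labelled si-CPSF3 and 14.2, 6.04 and 6.77 CPM in the control libraries, so that control replicate 1 stood apart. Its log2 fold change of -0.91 (SE 0.37, 95% interval -1.69 to -0.12, edgeR adjusted p = 0.248) came to -0.41 without that library. TSPAN18, whose exons overlap those of TP53I11 on the other strand, had 29, 19 and 27 counts in the libraries labelled si-CPSF3 and 63, 50 and 38 in the control libraries. The longest exon overlap of TSPAN18 and TP53I11 is 74 bases. With the strand setting not given in the sources used here, reads within such overlaps cannot be told apart. By the annotation, 12 of the 31 members share exon bases with another gene on either strand. AEN, a nuclease of apoptosis, was at 0.45 (95% interval -0.28 to 1.18), TRIAP1, an inhibitor of apoptosis in mitochondria, at 0.53 (95% interval -0.28 to 1.35), and PERP, a desmosome protein, at -0.26 (95% interval -0.75 to 0.22). PERPP2, a transcribed pseudogene of PERP, had 34 counts in the libraries labelled si-CPSF3 against 84 in the control libraries, and how the counting shared reads between it and PERP is unknown, so the value of PERP is uncertain. PHLDA3, an inhibitor of AKT, had 0 counts in the libraries labelled si-CPSF3 and 1 in the control libraries, and SPATA18, a gene of mitochondrial quality control, had 0 in all 6.

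Seen together, the groups did not overlap for 5 tested members that were higher in the libraries labelled si-CPSF3 (GDF15, BTG1, CDKN1A, SESN2 and EI24) and for 2 that were lower (PLK2 and TP53I11). Over all genes tested, 9.82% were higher and 11.4% lower without overlap. These 7 genes were also the members with an unadjusted edgeR p under 0.05, a level that 7.05% of all genes reached as higher and 8.33% as lower. Both statements rest on TMM scaling. By library total, groups of EI24 and BTG1 overlap, as replicate 1 labelled si-CPSF3 had 444 and 86 counts of 4267255. Control replicate 1 had 447 of EI24 in 4145385 counts, and control replicate 2 had 101 of BTG1 in 4362312. With library totals in place of TMM, 3 members were higher and 3 lower at an unadjusted edgeR p under 0.05. In that setting 424 of all 11069 genes were higher and 1142 lower at this level. For 14 of the 24 tested members the 95% interval lay within 2-fold either way, against 58.1% of all genes tested, so a 2-fold change was outside the interval of these 14 and inside it, or passed by the estimate, for the other 10. Of the 24, PLK2, PLK3 and RRM2B reached the minimum count in all 3 libraries only in the control group, and GDF15 only in the group labelled si-CPSF3.

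**Figure D3:**
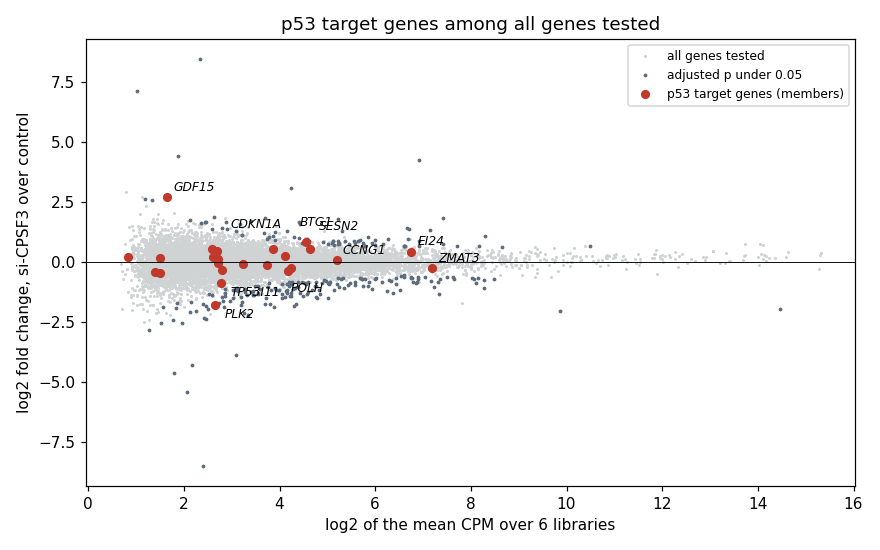
Log2 fold change (y axis, libraries labelled si-CPSF3 over control) against the log2 of the mean CPM over 6 libraries (x axis) for 11069 genes tested, with the 24 tested p53 target genes in red and genes with an adjusted p under 0.05 in dark grey. GDF15 and PLK2 stand at the low end of the abundance range, and the abundant members ZMAT3, EI24 and CCNG1 lie at -0.29, 0.42 and 0.05.

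Levels of the members differed widely when compared per length, on the authors' deposited FPKM scale. EI24 had the highest level, 70.0 ± 23.1 FPKM in the libraries labelled si-CPSF3 and 46.7 ± 5.82 FPKM in the control libraries (SD, n = 3 each). CCNG1 followed with 22.8 ± 5.15 FPKM in the libraries labelled si-CPSF3 and 24.2 ± 6.16 FPKM in the control libraries, and ZMAT3 with 14.5 ± 1.46 FPKM in the libraries labelled si-CPSF3 and 20.95 ± 7.12 FPKM in the control libraries. The levels of CCNG1 and ZMAT3 in the control libraries lay within their spread. GADD45A came next with 12.7 ± 5.56 FPKM in the libraries labelled si-CPSF3 and 13.2 ± 3.00 FPKM in the control libraries. CDKN1A was at 8.85 ± 3.03 FPKM in the libraries labelled si-CPSF3 and 6.29 ± 0.22 FPKM in the control libraries, and MDM2 at 1.69 ± 0.40 FPKM in the libraries labelled si-CPSF3 and 1.29 ± 0.33 FPKM in the control libraries. GDF15 was the 23rd of the 31 members in the control libraries, at 0.776 ± 0.482 FPKM, while it had 5.27 ± 1.97 FPKM in the libraries labelled si-CPSF3. For a single member, counts divided by FPKM varied among the libraries over a median range of 1.56-fold, and neighbours in this order may not differ.

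Relatives and regulators of p53 did not pass the test. The p53 relative TP73 and the MDM2 inhibitor CDKN2A had 0 counts in all 6 libraries. Of 20 tested relatives and regulators of p53, 0 passed with edgeR, and 3 had an unadjusted p under 0.05. This is near the share over all genes tested, 15.4% with an unadjusted edgeR p under 0.05 in either direction. The median was -0.01 on the log2 scale, with 9 above 0 and 11 below. RPL11 and RPL5, ribosomal proteins that bind MDM2 under nucleolar stress and the most abundant genes of this list, were at 0.13 (edgeR adjusted p = 0.833) and 0.22 (edgeR adjusted p = 0.565). Chosen after their values were seen, the p53-activating kinase HIPK2 and the nuclear body protein PML came nearest to the threshold, at -0.75 (edgeR adjusted p = 0.0707) and -1.07 (edgeR adjusted p = 0.0636).

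A further list of p53 targets, not among the 31, was counted the same way. Of its 31 tested genes 1 rose and 0 fell, the median log2 fold change was -0.01, and 13 lay above 0 and 18 below. Beside this, 0.723% of all genes tested rose and 1.51% fell, so nothing is read from this count about the list. The gene that rose was TNFRSF10B, the TRAIL receptor DR5, with 56.7, 63.1 and 54.2 CPM in the libraries labelled si-CPSF3 against 17.2, 17.5 and 15.35 CPM in the control libraries (log2 fold change 1.79, SE 0.17, edgeR adjusted p = 4.415e-05). With 1 library left out TNFRSF10B passed in 6 of 6 fits. On log2(FPKM + 1) with a filter it passed narrowly (limma adjusted p = 0.0455). It missed the threshold on log2(FPKM + 0.1) (limma adjusted p = 0.0756) and on FPKM without a filter (limma adjusted p = 0.288). The pro-apoptotic genes BAX, BBC3 and PMAIP1, chosen after their values were seen, did not pass. The genes BAX, BBC3 and PMAIP1 were at -0.00, 0.28 and 0.70 on the log2 scale, with edgeR adjusted p = 0.999, 0.793 and 0.333.

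GDF15, TNFRSF10B and SESN2 are known to respond to ATF4 and CHOP as well, so the genes of that arm were set beside them. Of its 6 tested genes 2 rose and 0 fell, with a median log2 fold change of 0.65. The shares over all genes tested were 0.723% higher and 1.51% lower. DDIT3, which encodes CHOP, had 203, 206 and 199 CPM in the libraries labelled si-CPSF3 against 82.9, 81.1 and 78.1 CPM in the control libraries (log2 fold change 1.33, edgeR adjusted p = 0.000124). TRIB3, a pseudokinase induced by CHOP, had 433, 426 and 408 CPM in the libraries labelled si-CPSF3 against 181, 198 and 227 CPM in the control libraries (1.06, edgeR adjusted p = 0.00139). ATF4 itself was at -0.06 in RNA (edgeR adjusted p = 0.903), which does not give the level of its protein. CHAC1, PPP1R15A and ASNS, the other tested genes of the arm, were at 0.68, 0.62 and 0.37. None of them passed (edgeR adjusted p = 0.1939, 0.1095 and 0.502). Of the 4 members known as targets of this arm, GDF15 rose, SESN2 was higher without passing, and GADD45A and GADD45B lay within 0.15 log2 units of 0. Whether this arm or p53 bears on GDF15 was not tested.

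Genes that p53 is known to lower through p21 and DREAM were set beside CDKN1A, which did not pass the test. Of 31 tested genes of this cell cycle list, 15 fell and 0 rose, with a median log2 fold change of -1.28 and 30 below 0. Over all genes tested, 1.51% fell and 0.723% rose, and 5627 of 11069 lay below 0. Whether p53 or p21 bears on these genes was not tested. AURKB, PLK1 and KIF20A, which act in mitosis, and the proliferation antigen MKI67 had the largest changes among the genes past the threshold, at -2.10, -2.06, -1.91 and -1.89. Their levels were 1.65 ± 0.67, 1.82 ± 0.60, 1.23 ± 0.36 and 6.35 ± 2.50 CPM in the libraries labelled si-CPSF3, against 7.09 ± 1.86, 7.73 ± 1.08, 4.67 ± 1.09 and 23.3 ± 2.91 CPM in the control libraries (SD, n = 3 each). Of the 31, 10 reached the minimum count in all 3 libraries only in the control group, AURKB, PLK1 and KIF20A among them. Without a filter on low counts these had an edgeR adjusted p = 0.000378 for AURKB, 0.00022 for PLK1 and 0.0191 for KIF20A. That setting is more lenient, with 547 genes past the threshold against 247. With 1 library left out, MKI67 passed in 6 of 6 fits, PLK1 in 5, AURKB in 2 and KIF20A in 0. Of all 18 alternative fits, KIF20A missed the threshold in 15, AURKB in 5, PLK1 in 4 and MKI67 in 3. Those of MKI67 were the fits on FPKM (limma adjusted p = 0.147, 0.202 and 0.462).

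**Figure D4:**
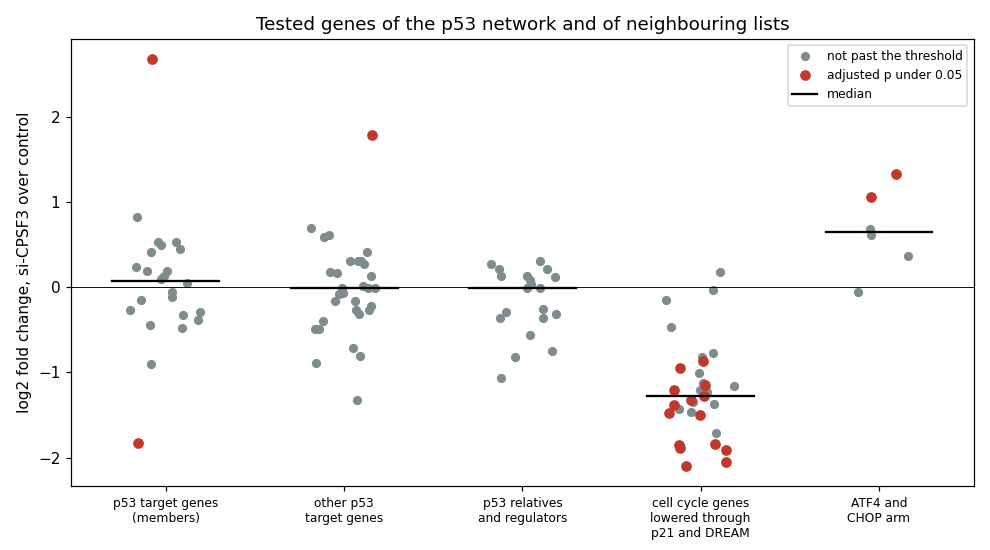
Log2 fold change (y axis, libraries labelled si-CPSF3 over control) of each tested gene in 5 lists, with red dots for an adjusted p under 0.05 and lines for medians. The p53 targets, the other p53 targets and the regulators have medians of 0.08, -0.01 and -0.01, the cell cycle list lies at -1.28 and the ATF4 and CHOP arm at 0.65.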

How the data were processed

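The authors deposited raw read counts per gene (whole numbers, not normalised) and FPKM values for 6 libraries. Per the labels' protocols, libraries were made from total RNA with a SMARTer mRNA kit, and per the submitters' processing notes the build was hg38; aligner, counter, strand setting and annotation: not given in the sources used here. The members and lists were chosen with earlier results of these data known. Of 25479 rows, the row of highest mean was kept for each of 23382 names. Counts were tested with edgeR 4.0.16 (R 4.3.3): filterByExpr (minimum count 10, 2.36 CPM in at least 3 libraries), TMM factors, glmQLFit and glmQLFTest with group as the only term, two-sided, Benjamini-Hochberg over 11069 genes, threshold 0.05. CPM are counts scaled by TMM-adjusted library size, ± is the SD, SE is the absolute log2 fold change over the root of F, and intervals are 95%. Of 24 tested members, all past the threshold, all with an unadjusted p under 0.05 and the most abundant of each role are given by library; in the other lists, up to 4 past the threshold by size of change, or else the 2 most abundant. The edgeR fit alone was tested on simulated counts, drawn with the same dispersion for every gene, with the outcome not given here. Replicates differed by more than sampling noise (chi-square per degree of freedom 5.91 to 14.2). Alternatives used DESeq2 1.42.0 and limma 3.58.1, which ran voom on counts and its trend fit on log2(FPKM + 1) and log2(FPKM + 0.1). Positions and promoters are from RefSeq (GRCh38.p14), overlaps from GENCODE 29. 1 gene of the regulator list is not reported here.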

Additional observations from a re-analysis of the deposited data

How the results depend on the processing

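Against 1 member higher (GDF15), 1 lower (PLK2) and 247 genes past the threshold, DESeq2 size factors, upper-quartile factors, library totals, a filter of 1 CPM in 3 libraries and the DESeq2 test gave 1 and 1 members again, with 190 to 240 genes; library totals gave 36 higher of 190, against 80 of 247. Without a filter on low counts 2 members were higher and 547 genes passed, and with summed rows 2 members were higher, BTG1 being the second in both. With limma-voom 0 members were higher (5 at an unadjusted p under 0.05; GDF15 adjusted p = 0.0515). With 1 library left out, members higher ranged from 0 to 2, members lower from 0 to 1 and genes from 85 (without replicate 2 of the libraries labelled si-CPSF3) to 199. On log2(FPKM + 1), 31 genes passed, with 0 members lower; on log2(FPKM + 0.1), 18 genes and 0 members in either direction; without a filter, 0 genes and 0 members (limma, 1392 genes and 1 member each way at an unadjusted p under 0.05). The cause was not tested. CCNG1 reversed to -0.04 with library totals, to -0.08 in each FPKM fit, and ranged from -0.09 to 0.20 with 1 library left out. Deviations of same-numbered libraries had correlations of 0.0533, 0.0766 and -0.0493, and those of different-numbered libraries ranged from -0.125 to 0.0732. Such small values do not show whether same-numbered libraries share a culture or day. With the replicate block 147 genes and the same 2 members passed. For 10 of 24 tested members the 95% interval reaches past 2-fold, GDF15 and PLK2 among them through their estimates.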
